A study of Equus caballus with 3 samples.

Results

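The nuclear genes for the subunits of the 5 oxidative phosphorylation complexes were examined in equine mesenchymal stromal cells (MSCs) of a single donor, derived from peripheral blood (PB), bone marrow (BM) or adipose tissue (AT). Members were chosen by name alone: every gene off chromosome MT whose symbol begins with NDUFA, NDUFB, NDUFC, NDUFS, NDUFV, UQCR, COX4 to COX8, ATP5 or SDH, without the assembly factors and without NDUFA4L2. This rule found 70 genes of 29927 gene rows, and all 70 had a row in each of the 3 matrices. They comprise 32 genes of complex I, 3 of complex II, 6 of complex III, 14 of complex IV and 15 of complex V, the ATP synthase. The name rule does not give every subunit: of 87 subunit names looked up, 17 had no row under that name in these matrices, among them SDHD, UQCRH, COX6C, COX7C and NDUFA4, so a summed value for a complex is a sum over the named genes only.

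All cells came from 1 healthy warmblood mare aged 10 years, were grown for 2 passages and were captured on the 10X Genomics 3′ version 2 platform, with 1 library per source. The labels name no treatment. The titles give the source as AT, BM or PB, whereas the source name field reads blood mononuclear cells for all 3 libraries. The groups are therefore passaged cultures of 1 animal, and source, culture and library cannot be told apart. With 1 library per source there is no test between sources. Brackets after a level or a share are exact 95% Poisson or Clopper-Pearson intervals. Brackets after a difference or a ratio combine the 95% limits of both sums and are wider than a 95% interval of it. All of them cover counting error only, not the spread between cultures or animals.

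Kept barcodes had 2500 to 15000 unique molecular identifiers (UMIs, 1 per captured transcript) and at most 3% of UMIs on chromosome MT. This left 5403 AT-, 5580 BM- and 5318 PB-derived MSCs, with medians of 7291, 6874.5 and 7750 UMIs and 39980656 to 41622445 UMIs in total per library. The 9 stromal markers summed to between 22303 and 34610 CPM with none at 0, while PTPRC, the pan-leukocyte marker CD45, had no UMI in any library and the haematopoietic markers together stayed at or below 0.775 CPM. The smooth muscle or pericyte markers summed to 1463, 1137 and 702 CPM and the osteoblast markers to 3.08, 152 and 360 CPM in AT, BM and PB, and their part in the results below was not tested. The libraries also shared barcodes. The AT and PB libraries had 37 kept barcodes in common, and 4667 of the 5318 kept PB barcodes were present with at least 500 UMIs in another library, against 116 of the kept AT and 87 of the kept BM barcodes.

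Oxidative phosphorylation is the final stage of aerobic energy conversion. Complexes I and II feed electrons from NADH and succinate into the inner mitochondrial membrane, complex III passes them to cytochrome c, complex IV hands them to oxygen, and complexes I, III and IV pump protons whose return through complex V drives ATP synthesis. Complexes I, III, IV and V combine subunits from chromosome MT with subunits from nuclear genes, and complex II is nuclear throughout. Cultured MSCs are generally regarded as strongly glycolytic cells, with oxidative phosphorylation increasing in some forms of differentiation. The 70 members lie on 27 chromosomes of EquCab3.0, and NDUFA1, NDUFB11 and COX7B are on chromosome X. The matrices give chromosome and strand without coordinates.

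The members took a small share of all UMIs, lowest in AT. Summed over the 70 genes, AT-derived MSCs held 14868 CPM [14830, 14905], BM-derived MSCs 17365 CPM [17324, 17406] and PB-derived MSCs 16654 CPM [16615, 16693], where CPM is UMIs per 1000000 UMIs of the kept cells of a source. These sums are 1.49%, 1.74% and 1.67% of all UMIs. On the scale of log2(CPM + 1), the sum in BM was 0.22 above AT [0.22, 0.23], the sum in PB was 0.16 above AT [0.16, 0.17], and PB was 0.06 below BM (difference of -0.06 [-0.07, -0.05]). The order of BM and PB and the difference of BM from AT depended on scaling. TMM factors, which align the bulk of genes rather than the totals, gave -0.06 for BM minus AT, 0.12 for PB minus AT and 0.17 for PB minus BM. By construction they move each gene well above 1 CPM by the same amounts, -0.28 for BM minus AT, -0.04 for PB minus AT and 0.23 for PB minus BM, so a gene with BM near PB in CPM has PB above BM under these factors. Cytosolic ribosomal protein genes took 240954 CPM in AT, 181421 CPM in BM and 213159 CPM in PB, and their part in this shift was not tested.

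The difference between PB and AT in the summed value also depended on which PB cells were counted. Without kept barcodes that another library held, 651 PB-derived MSCs with a median of 3445 UMIs remained, and PB minus AT was -0.01 on the log2 scale. The AT- and BM-derived MSCs of this setting had medians of 7296 and 6875 UMIs. Each value given without shared barcodes therefore sets PB cells of lower depth against the other sources, and the part of depth was not tested. With the shared AT barcodes left out and the other libraries whole, an alternative chosen after the data were seen, PB minus AT was 0.16. Among kept cells of at most 5000 UMIs outside the shared barcodes, the members summed to 13693 CPM in 876 AT-derived, 16555 CPM in 929 BM-derived and 14775 CPM in 650 PB-derived MSCs. PB thus lay above AT and below BM among these cells. In the same depth range, the 93 PB-derived MSCs with a shared barcode held 16138 CPM at a median of 4731 UMIs.

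**Figure D1:**
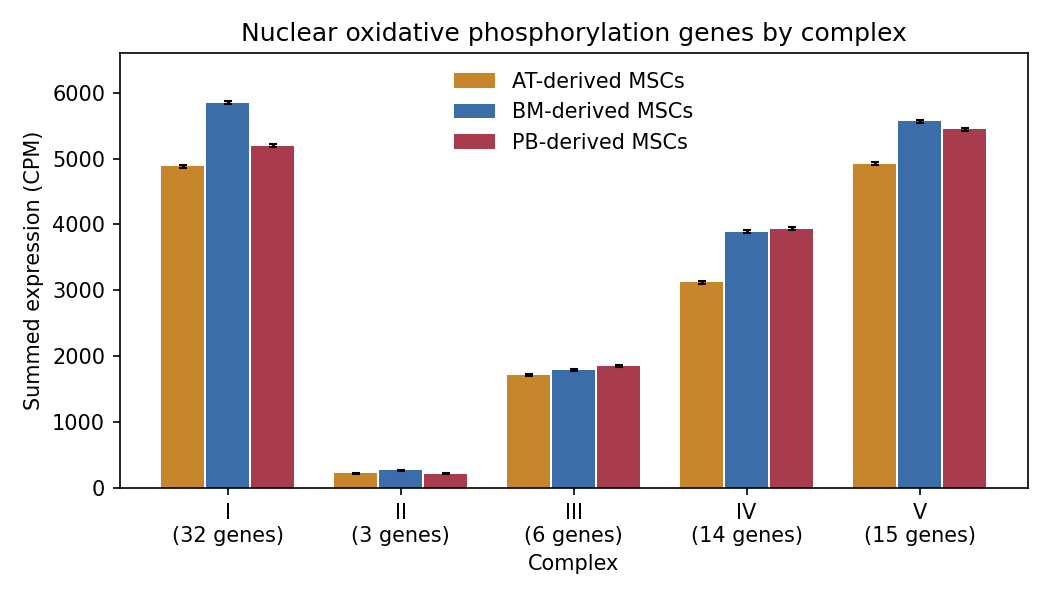
Bars give the summed expression in CPM (vertical axis, starting at 0) of the nuclear members of each complex in AT-, BM- and PB-derived MSCs, with the number of genes under each complex and exact 95% Poisson intervals as error bars that cover counting error only. In CPM, complex IV was lower in AT (3121 CPM) than in BM (3890 CPM) and PB (3937 CPM), and complex I was highest in BM (5848 CPM), while under TMM factors BM minus AT was 0.04 and -0.02 on the log2 scale for these complexes.

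The 5 complexes did not move alike. For complex IV, cytochrome c oxidase, the sums were 3121 CPM in AT, 3890 CPM in BM and 3937 CPM in PB, so that in CPM AT lay below both other sources and BM and PB differed by 0.02 on the log2 scale. Under TMM factors this arrangement did not hold, since BM minus AT was 0.04 and PB minus BM 0.25. Complex I, NADH dehydrogenase, summed to 4885, 5848 and 5197 CPM, with BM 0.26 above AT (-0.02 under TMM factors) and PB 0.09 above AT. Complex V summed to 4918, 5562 and 5442 CPM and complex III to 1715, 1795 and 1855 CPM, and under TMM factors BM minus AT was -0.10 and -0.21 for these complexes. Complex II, which is also an enzyme of the tricarboxylic acid cycle, had the smallest sums, 228, 270 and 223 CPM, and its difference between PB and AT was -0.03 [-0.09, 0.03], an interval that includes 0.

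Shares within the members' UMIs do not depend on how libraries are scaled. Complex IV took 21.0% (AT), 22.4% (BM) and 23.6% (PB) of the members' UMIs. Complex I made up 32.9%, 33.7% and 31.2%, complex V 33.1%, 32.0% and 32.7%, complex III 11.5%, 10.3% and 11.1%, and complex II 1.53%, 1.55% and 1.34%. PB therefore carried the largest complex IV share and the smallest complex I and complex II shares of the 3 libraries. Under TMM factors, the summed difference of PB from AT was 0.29 for complex IV, 0.10 for complex V, 0.07 for complex III, 0.04 for complex I and -0.08 for complex II. Without shared barcodes it was 0.23 for complex IV, -0.01 for complex V, -0.01 for complex III, -0.15 for complex I and -0.46 for complex II. Complex IV alone kept a difference above 0 in that setting, where PB cells were of lower depth than AT cells.

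Across single genes, a member was counted as past the fold where log2(CPM + 1) differed by more than 0.5 and the gene reached 10 CPM in a source of the pair. Between BM and AT, 9 of 64 members were past the fold on the BM side (14.1%), against 27.3% of all 7072 genes, and 0 were past it on the AT side, against 6.70% of all genes. The median member differed by 0.26 and the median gene by 0.24, so the members did not stand apart from the general shift of these libraries. Under TMM factors the same counts were 1 above and 3 below, beside 13.6% and 15.1% of all genes. Relative to the median gene, 1 of 64 members was more than 0.5 above and 2 were more than 0.5 below, against 15.0% and 13.1% of all genes.

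Between PB and AT, 11 of 65 members were past the fold on the PB side (16.9%), against 14.0% of all 6720 genes, and 0 were past it on the AT side, against 10.2% of all genes. Here the median member differed by 0.21 while the median gene differed by 0.03. Of the 65 members, 43 lay above the median gene. Without shared barcodes the counts were 5 above (7.69%) and 6 below (9.23%), against 17.3% and 17.5% of all genes, with a median member of -0.02 beside a median gene of -0.01. Between PB and BM, 3 of 65 members were past the fold on the PB side (4.62%), against 6.28% of all 7066 genes, and 2 were past it on the BM side (3.08%), against 21.6% of all genes. The median gene was -0.20 in this pair and the median member -0.01. The alternatives moved these counts in opposite directions. TMM factors gave 9 members above (13.8%) and 0 below, against 11.9% and 10.4% of all genes, whereas without shared barcodes 2 were above and 19 below (29.2%), against 8.74% and 30.7% of all genes, with a median member of -0.19 beside a median gene of -0.25. In CPM, COX7A1 was past the fold on the PB side against both AT and BM. It reached 10 CPM in PB alone, so the filter let it count only on that side.

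In level, the members kept nearly the same order in every source, with Spearman correlations of 0.98 over 70 genes for each pair, given as a description of libraries that share a protocol and an annotation. Of the 70 members, 65 reached 10 CPM in at least 1 source. The other 5 were NDUFA2, with a single UMI in PB, COX6A2 and COX7B2, with no UMI, and COX4I2 and COX6B2, which are described below. The highest of the 3 values fell in AT for 6 of the 65 members, in BM for 31 and in PB for 28, and the lowest fell in AT for 38, in BM for 10 and in PB for 17. COX7A1 reached 10 CPM in PB alone, so its highest value could only fall there. Over the 7211 genes of at least 10 CPM, the highest value fell in AT for 21.2%, in BM for 58.0% and in PB for 20.8%, and the lowest for 47.1%, 14.6% and 38.3%. This tally depended on scaling, since under TMM factors the highest of the members' values fell in AT for 18, in BM for 9 and in PB for 38, beside 38.1%, 29.8% and 32.1% of all genes. Without shared barcodes it fell in AT for 9, in BM for 43 and in PB for 13, beside 20.4%, 55.3% and 24.3% of all genes.

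**Figure D2:**
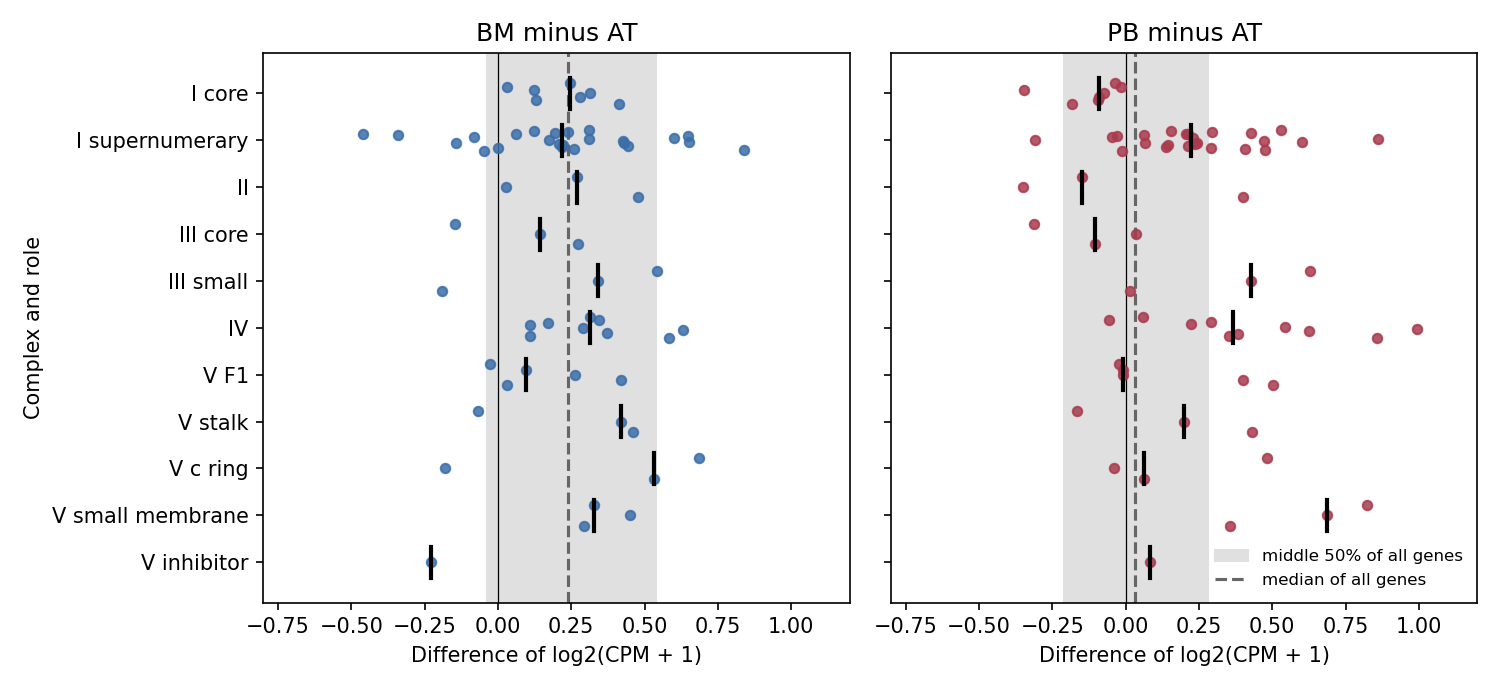
Each point is 1 member with at least 10 CPM in a source of the pair, placed by its difference of log2(CPM + 1) for BM minus AT (left) and PB minus AT (right), with a thick black bar at the median of its role group, a dashed line at the median of all genes (0.24 and 0.03) and grey shading over the interquartile range of all genes. In the right panel the 7 core subunits of complex I all lie left of 0, and 9 of 10 complex IV genes lie right of it. COX7A1, 1 of these 9, reached 10 CPM in PB alone and could only lie right of 0.

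The core subunits of complex I carry the flavin and iron-sulphur centres that take electrons from NADH to ubiquinone. All 7 nuclear core genes were lower in PB than in AT, with a median of -0.09 and a range of -0.35 to -0.01, and all 7 were higher in BM than in AT, with a median of 0.24. The count for PB against AT was also 7 of 7 without shared barcodes, whereas 2 of 7 were higher in PB once the 25% of cells richest in cell cycle UMIs were left out. Under TMM factors it stayed at 7 of 7, which was fixed in advance, since they move this pair by -0.04. The count for BM against AT was 3 of 7 under TMM factors. Of all genes, 53.5% were higher in PB than in AT, and 72.2% were higher in BM than in AT, or 45.6% under TMM factors. Together these genes held 1193 CPM in AT, 1446 CPM in BM and 1101 CPM in PB. NDUFV2, an iron-sulphur subunit of the NADH-oxidising module on chromosome 8, was at 275 CPM in AT, 367 CPM in BM and 242 CPM in PB, and PB lay 0.60 below BM (difference of -0.60 [-0.65, -0.54]). That difference was -0.36 under TMM factors and -0.90 without shared barcodes. NDUFS3, on chromosome 12, was at 78.7, 85.9 and 61.7 CPM, lowest in PB.

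The supernumerary subunits of complex I surround the core and are needed for its assembly and stability. Here 20 of 24 were higher in PB than in AT, with a median of 0.22, and 18 of 24 were higher in BM than in AT, also with a median of 0.22. Of all genes, 53.5% were higher in PB than in AT and 72.2% higher in BM than in AT, so the count for BM was near that of all genes. Without shared barcodes the count for PB was 13 of 24, beside 48.6% of all genes, and under TMM factors the count for BM was 9 of 24, beside 45.6% of all genes. As a share of complex I UMIs, which is free of scaling, the core genes made up 24.4% [24.2, 24.6] in AT, 24.7% [24.5, 24.9] in BM and 21.2% [21.0, 21.4] in PB, and 20.9% in the PB-derived MSCs without a shared barcode. The lower core share of PB was thus present in both sets of PB barcodes.

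Single supernumerary genes differed in opposite directions. NDUFS5, on chromosome 2, had the largest difference of any member between BM and AT, at 176 CPM in AT, 317 CPM in BM and 246 CPM in PB, with BM 0.84 above AT [0.78, 0.90], or 0.56 under TMM factors, and PB minus AT at 0.48, or 0.11 without shared barcodes. NDUFA8, a cysteine-rich subunit of the intermembrane space side, was at 141 CPM in AT, 222 CPM in BM and 138 CPM in PB, so BM was high and the other libraries lay close together when all kept cells were counted, but PB minus AT was -0.41 without shared barcodes. NDUFAB1, the mitochondrial acyl carrier protein that also serves fatty acid synthesis, was at 157, 238 and 184 CPM, again highest in BM, with PB minus AT at 0.23 and at -0.13 without shared barcodes. NDUFB3 was at 69.4 CPM in AT and at 110 and 106 CPM in BM and PB, with AT low, and under TMM factors BM minus AT went from 0.65 to 0.37 and PB minus BM from -0.05 to 0.18. NDUFB1 was low everywhere, at 13.2, 16.6 and 24.8 CPM, and highest in PB, 0.86 above AT [0.66, 1.06]. Without shared barcodes PB minus AT was 0.48, and PB minus BM went from 0.55 to 0.16.

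NDUFB10, on chromosome 13, had the highest mean CPM of complex I over the 3 libraries. It held 595 CPM in AT, 672 CPM in BM and 481 CPM in PB, so PB was the lowest library, 0.31 below AT (difference of -0.31 [-0.35, -0.27]). This difference was -0.35 under TMM factors and -0.46 without shared barcodes. NDUFA3, on chromosome 10, was lowest in BM instead, at 37.6 CPM in AT, 27.1 CPM in BM and 43.6 CPM in PB, and PB lay 0.67 above BM [0.52, 0.81].

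Complex II oxidises succinate through a flavoprotein, SDHA, and an iron-sulphur protein, SDHB, held in the membrane by SDHC and SDHD. SDHA was at 61.4 CPM in AT, 74.2 CPM in BM and 55.3 CPM in PB. SDHB was at 97.9 CPM in AT, 99.7 CPM in BM and 76.6 CPM in PB, so AT and BM agreed within counting error in CPM (0.03 [-0.06, 0.12]) and PB was low. Under TMM factors BM minus AT was -0.25. The membrane anchor SDHC departed from both, at 68.7 CPM in AT, 96.0 CPM in BM and 90.8 CPM in PB, with PB 0.40 above AT [0.30, 0.50]. The catalytic subunits were thus lower and the anchor higher in PB than in AT when all kept cells were counted. Without shared barcodes, PB minus AT was 0.0084 for SDHC, so the higher level of the anchor was almost absent there, and it was -0.51 for SDHA and -0.84 for SDHB.

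Complex III showed a similar division between its larger and smaller proteins in their sums, though not in every gene. The core proteins UQCRC1 and UQCRC2 and the Rieske iron-sulphur protein UQCRFS1 summed to 460 CPM in AT, 505 CPM in BM and 414 CPM in PB. For single genes PB minus AT was -0.31 for UQCRC1, 0.04 [-0.08, 0.15] for UQCRC2 and -0.10 for UQCRFS1. Of the UMIs of the 6 complex III members, these 3 genes took 26.8% [26.5, 27.1] (AT), 28.1% [27.8, 28.4] (BM) and 22.3% [22.04, 22.62] (PB). That total lacks CYC1, which the name rule does not reach, and UQCRH and UQCR11, which had no row. Among the small subunits, UQCR10, on chromosome 8, was at 234 CPM in AT, 341 CPM in BM and 363 CPM in PB, with AT low and PB 0.63 above it [0.58, 0.68]. Under TMM factors BM minus AT went from 0.54 to 0.26 and PB minus BM from 0.09 to 0.32. UQCRQ, which gave the most UMIs in this complex, was at 881 CPM in AT, 772 CPM in BM and 890 CPM in PB, and its difference between PB and AT was 0.01 [-0.02, 0.04], an interval that includes 0.

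In complex IV, the nuclear subunits surround a catalytic core made from chromosome MT and adjust its stability and activity. Between PB and AT, 9 of the 10 genes that reached 10 CPM were higher in PB, with a median of 0.37, the exception being COX5A, at 235 CPM in AT, 299 CPM in BM and 226 CPM in PB. COX7A1, 1 of the 9, reached 10 CPM in PB alone (11.2 CPM), so the filter let it count only as higher in PB. COX5A was named after its values were seen. Under TMM factors the count stayed at 9 of 10, which was fixed in advance, since the lowest difference above 0 was 0.06 and the shift of this pair -0.04. Without shared barcodes it was 8 of 10. Of all genes, 53.5% were higher in PB than in AT, 48.1% under TMM factors and 48.6% without shared barcodes. Between BM and AT, 9 of 9 were higher in BM, with a median of 0.31, but 6 of 9 with a median of 0.03 under TMM factors, beside 72.2% and 45.6% of all genes. COX8A, the ubiquitous form of the smallest subunit, on chromosome 12, was at 314 CPM in AT, 471 CPM in BM and 570 CPM in PB. Its 3 levels were well apart, PB was 0.86 above AT [0.81, 0.90] or 1.82-fold, and the difference was 0.81 under TMM factors and 0.84 without shared barcodes.

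Other complex IV genes followed COX8A to differing degrees. COX6B1, which faces the intermembrane space where cytochrome c docks, had its levels in the same order, at 278 CPM in AT, 340 CPM in BM and 405 CPM in PB. Under TMM factors its BM minus AT was 0.013, so AT and BM lay together there and PB above both. COX7A2 was at 157 CPM in AT, 243 CPM in BM and 242 CPM in PB, so AT was low and BM and PB agreed within counting error in CPM. That agreement depended on the setting, with PB minus BM at 0.23 under TMM factors and -0.31 without shared barcodes. COX7A2L, a COX7A relative that takes part in joining complexes III and IV into supercomplexes, was at 370, 480 and 483 CPM, with the same arrangement in CPM and PB minus BM at 0.24 under TMM factors and 0.19 without shared barcodes. COX6A1 was at 386, 417 and 451 CPM, with PB minus AT at 0.22 and at 0.01 without shared barcodes, and the X-linked COX7B was at 216, 233 and 276 CPM. For both, BM minus AT turned from 0.11 to -0.17 under TMM factors. COX4I1, which gave the most UMIs in complex IV, was at 805 CPM in AT, 1002 CPM in BM and 840 CPM in PB, so that BM stood above the others in CPM, whereas under TMM factors BM minus AT was 0.03 and PB minus BM -0.02.

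Several complex IV subunits have paralogues that are used in particular tissues, and these cultures used the ubiquitous forms almost throughout. COX4I2, the form of lung and of low oxygen, gave 5, 8 and 18 UMIs, which is 0.0155%, 0.0198% and 0.0515% of the COX4 UMIs in AT, BM and PB. COX6A2, the heart and skeletal muscle form, gave 0 UMIs. Taking 3 UMIs as the most that a count of 0 allows, a limit narrower than the upper end of the Clopper-Pearson interval, its share was up to 0.0194%, 0.0179% and 0.0160% of the COX6A UMIs. COX7B2 also gave 0 UMIs, which by the same limit allows up to 0.0347%, 0.0319% and 0.0261%. These limits take it that transcripts of both genes would be counted if present, which was not tested. COX6B2, known from testis, gave 55, 44 and 4 UMIs, or 0.493% [0.372, 0.641], 0.320% [0.233, 0.430] and 0.0237% [0.00646, 0.0607] of the COX6B UMIs. PB was thus the low library for COX6B2, on very few molecules.

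COX7A1, the heart and skeletal muscle form of COX7A, gave more UMIs than the other tissue forms. It held 5.13 CPM in AT, 6.34 CPM in BM and 11.2 CPM in PB, from 205, 255 and 466 UMIs, and PB lay 0.99 above AT [0.70, 1.28]. AT and BM overlapped within counting error (0.26 [-0.06, 0.58]). Set against its ubiquitous partner, COX7A1 took 3.17% (AT), 2.54% (BM) and 4.42% (PB) of the COX7A1 and COX7A2 UMIs. Without shared barcodes PB minus AT was 0.90 and the share in PB was 5.11%. The 5 skeletal or heart muscle markers summed to 16.7, 27.0 and 5.81 CPM in AT, BM and PB, and their relation to COX7A1 was not tested.

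ATP synthase consists of a catalytic F1 head, a rotating ring of c subunits, a peripheral stalk and small membrane proteins. The 5 genes of the head had differing patterns. There, ATP5F1A, the alpha subunit, was at 606, 595 and 597 CPM and ATP5F1B, the catalytic beta subunit, at 249, 266 and 247 CPM in AT, BM and PB, whereas ATP5F1E, the epsilon subunit, was at 310, 317 and 440 CPM, with PB high. ATP5F1C, the gamma subunit of the rotating shaft, was at 368, 442 and 366 CPM, with BM high, and ATP5F1D, the delta subunit, at 237, 318 and 314 CPM, with AT low. The small membrane proteins were all higher in PB than in AT, beside 53.5% of all genes, and 3 of 3 also without shared barcodes, beside 48.6%. Under TMM factors 3 of 3 was fixed in advance, since the lowest difference was 0.36 and the shift of this pair -0.04, and 48.1% of all genes were higher there. The share of these proteins in complex V UMIs was 5.02% [4.92, 5.12] (AT), 5.66% [5.56, 5.75] (BM) and 6.90% [6.80, 7.01] (PB). ATP5MD, which helps to join ATP synthase dimers, was at 75.4 CPM in AT, 94.96 CPM in BM and 134 CPM in PB, with PB 0.82 above AT [0.74, 0.91] and BM minus AT at 0.33, or 0.05 under TMM factors. ATP5MF, the f subunit, was at 63.9, 87.6 and 103 CPM, in the same order. Without shared barcodes its PB minus AT fell from 0.69 to 0.26 and its PB minus BM went from 0.24 to -0.18, so the order of BM and PB turned, while for ATP5MD these were 0.74 and 0.41. The inhibitory factor ATP5IF1, which stops the enzyme from running backwards, was lowest in BM, at 401, 343 and 425 CPM.

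The genes for the ring of c subunits differed in composition between the sources. ATP5MC1, ATP5MC2 and ATP5MC3 differ in the import sequence that is cut off and yield the same mature c subunit. ATP5MC3 was at 604 CPM in AT, 874 CPM in BM and 631 CPM in PB, whereas ATP5MC2 was at 736, 650 and 716 CPM and ATP5MC1 at 158, 254 and 221 CPM. BM was therefore high for ATP5MC3 and ATP5MC1 and low for ATP5MC2 in CPM, while under TMM factors BM and PB were close for ATP5MC1 (PB minus BM of 0.03). Of all c subunit UMIs, ATP5MC3 made up 40.3% [39.9, 40.7] in AT, 49.1% [48.8, 49.5] in BM and 40.3% [39.9, 40.6] in PB, so AT and PB agreed within counting error when all kept cells were counted. Without shared barcodes it made up 40.3% in AT and 37.0% in PB. ATP5MC2 made up 49.1% [48.7, 49.5], 36.6% [36.2, 36.9] and 45.6% [45.3, 46.0]. ATP5MC2 was the leading gene of the set in AT and PB, and ATP5MC3 in BM.

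**Figure D3:**
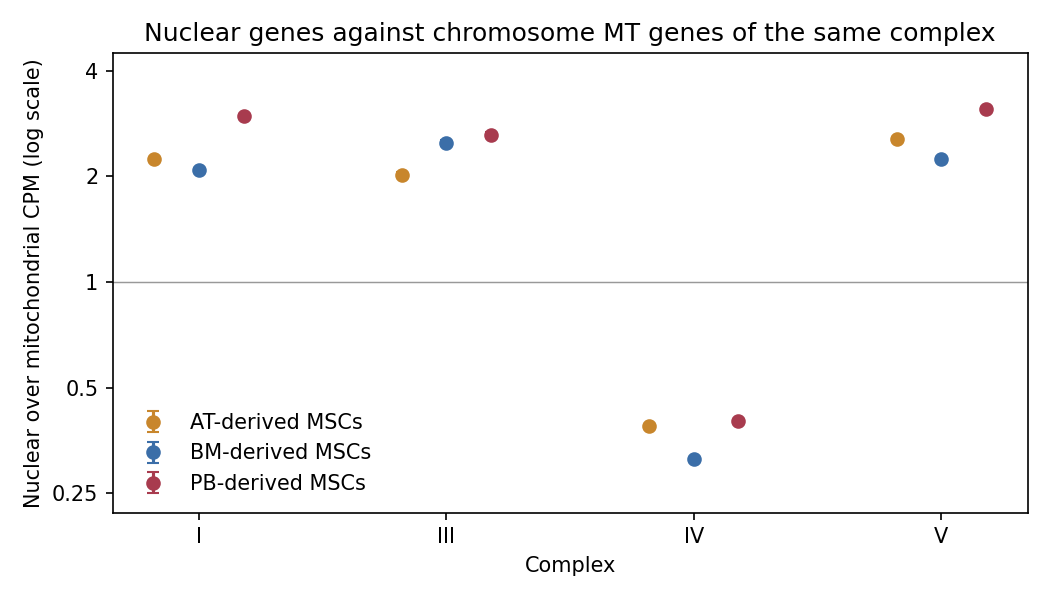
Points give the ratio of summed nuclear CPM to summed chromosome MT CPM of the same complex on a log axis, for complexes I, III, IV and V in AT-, BM- and PB-derived MSCs. Error bars combine the exact 95% limits of both sums and are smaller than the points. Complex IV is the only one below 1, at 0.389, 0.313 and 0.401, and PB is the highest library in all 4 complexes when all kept cells are counted, but not in complexes III and IV without shared barcodes (2.29 and 0.343).

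The nuclear and mitochondrial genomes contribute to the same complexes, and their UMIs can be set against each other. For complex IV, the 14 nuclear genes held less than the 3 chromosome MT genes, with ratios of 0.389 [0.385, 0.392] in AT, 0.313 [0.310, 0.315] in BM and 0.401 [0.398, 0.404] in PB. For complex I the ratios were 2.24, 2.09 and 2.98, for complex III 2.03, 2.49 and 2.63, and for complex V 2.56, 2.25 and 3.12. Over the 4 complexes, the nuclear genes exceeded the 13 chromosome MT genes in AT (1.13) and PB (1.17) and fell short of them in BM (0.927). Chromosome MT transcripts of complex IV were at 8032 CPM in AT, 12446 CPM in BM and 9824 CPM in PB, so BM combined a nuclear sum near that of PB with the highest mitochondrial sum. The limit of 3% on chromosome MT bounds these values from above. Without any such limit the ratios over the 4 complexes were 1.12, 0.908 and 1.16, and without shared barcodes the ratio in PB was 0.969, below AT at 1.13. In that setting PB was at 2.44 for complex I, 2.29 for complex III, 0.343 for complex IV and 2.57 for complex V, so it was below BM (2.49) for complex III and below AT (0.389) for complex IV.

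**Figure D4:**
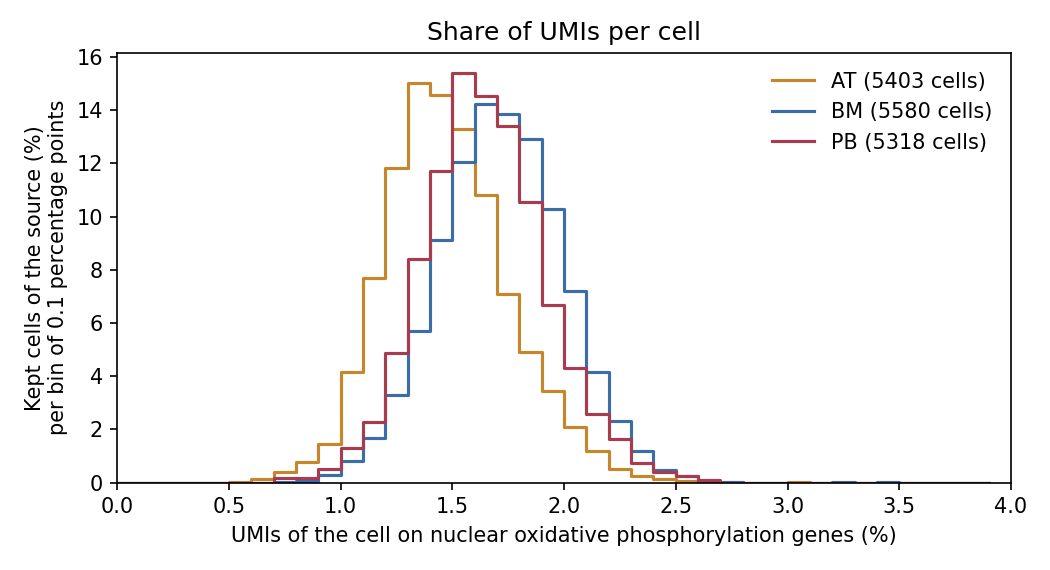
Lines show the distribution over kept cells of the percentage of a cell's UMIs that fell on the 70 members (horizontal axis), as the percentage of cells of each source in bins of 0.1 percentage points (vertical axis). The distributions overlap widely, with medians of 1.46% in AT, 1.72% in BM and 1.64% in PB.

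In single cells, the share of UMIs on the members had a median of 1.46% (AT), 1.72% (BM) and 1.64% (PB). The 5th and 95th percentiles were 1.06% and 1.97% in AT, 1.27% and 2.18% in BM, and 1.21% and 2.12% in PB, so the sources overlapped over most of their range. With every cell thinned to 2500 UMIs the medians were 1.44%, 1.72% and 1.64%. The SD over cells was 0.279, 0.278 and 0.275 percentage points, which is 1.84, 1.69 and 1.78 times the SD that binomial counting at each cell's depth gives. Variation among cells beyond counting error was therefore of much the same size in each library.

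The members' share was also set against other shares across cells. Its correlation with the share of UMIs on cytosolic ribosomal protein genes was -0.62 over 5403 cells in AT, -0.48 over 5580 in BM and -0.63 over 5318 in PB. Both shares have the same denominator, which by itself pushes such a correlation below 0, and cells of 1 library are not replicates. The shares of complexes I and V correlated at 0.43, 0.36 and 0.42. The correlation with the share on chromosome MT was 0.24 in AT, -0.03 in BM and -0.14 in PB, so the nuclear and mitochondrial genes of these complexes did not move together in a common way across the libraries.

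**Figure D5:**
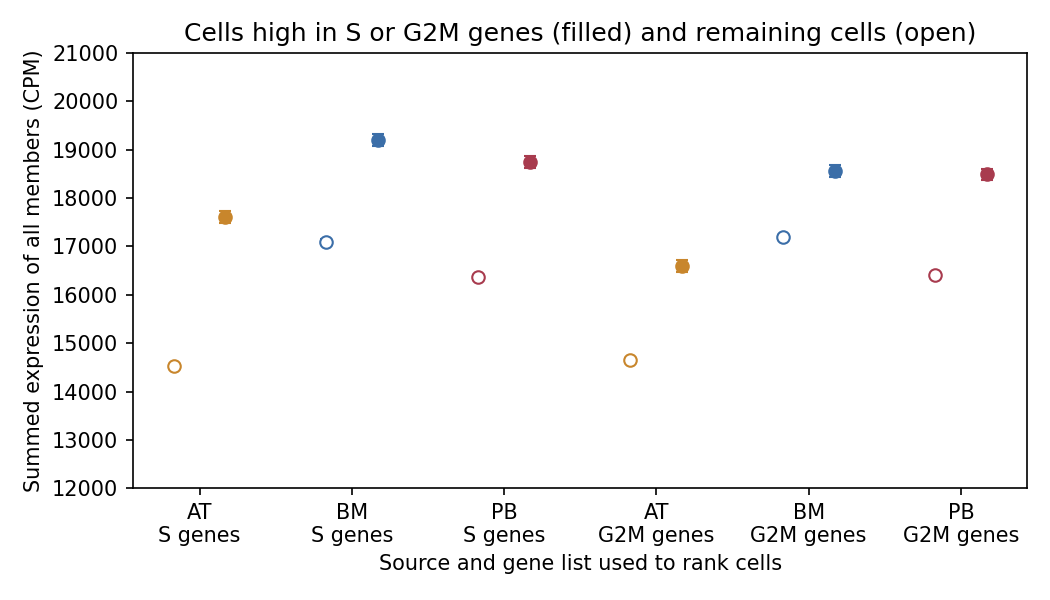
Filled points give the summed CPM of the 70 members in the 10% of cells with the highest share of UMIs on S or G2M genes, with exact 95% intervals, and open points the remaining 90% of the same source. The vertical axis does not start at 0. Filled points lie above open points in all 6 comparisons, as does the median gene, for S genes at 17606 against 14518 CPM in AT, 19201 against 17101 CPM in BM and 18750 against 16372 CPM in PB.

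Cells rich in cell cycle transcripts held a larger share of UMIs on the members, and the median gene was higher in them too. In the 10% of cells with the highest share of UMIs on 40 S-phase genes, the members summed to 17606 CPM in AT, against 14518 CPM in the remaining cells. The corresponding sums were 19201 and 17101 CPM in BM and 18750 and 16372 CPM in PB. On the log2 scale these differences were 0.28, 0.17 and 0.20, beside medians over all genes of 0.15, 0.15 and 0.14. For the 10% highest in G2M genes, the differences were 0.18, 0.11 and 0.17, beside medians over all genes of 0.14, 0.12 and 0.13, so in BM the members' difference was below that of the median gene. These groups are ends of a continuous range and not cell types. Their depth also differed, with medians of 8615.5 against 7204 UMIs (AT), 9171 against 6688.5 (BM) and 9557 against 7646.5 (PB), and cytosolic ribosomal proteins were at 212155 against 244628 CPM in AT. The part of either in the difference was not tested.

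The members did not move evenly with the cell cycle. ATP5MC1 had the largest such difference in AT, at 275 CPM in the cells high in S genes and 143 CPM in the rest, and was also higher in those cells in BM (378 against 237 CPM) and PB (354 against 203 CPM). UQCR10 was at 621 against 328 CPM in PB, 348 against 220 CPM in AT and 439 against 327 CPM in BM. NDUFA8 was at 336 against 206 CPM in BM, 193 against 135 CPM in AT and 189 against 132 CPM in PB. Some members went the other way. COX7A2L was at 321 against 503 CPM in BM, 327 against 376 CPM in AT and 384 against 496 CPM in PB, and ATP5F1A was at 453 against 616 CPM in PB, 454 against 615 CPM in BM and 536 against 615 CPM in AT. These genes had the highest or lowest difference of a library and were picked out on that ground.

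The cells were also divided by mitochondrial share. In the lowest, middle and highest tercile of the chromosome MT share, the sum was 13984, 14666 and 15955 CPM in AT, 17345, 17417 and 17332 CPM in BM, and 16988, 16640 and 16335 CPM in PB. On the log2 scale the highest minus the lowest tercile was 0.19 in AT, -0.0011 in BM and -0.06 in PB, beside medians over all genes of 0.06, 0.03 and 0.0028. In this contrast 0 of 65 members were above the fold and 7 below in PB, against 3.72% and 7.42% of all genes. In AT, 2 of 64 were above and 0 below, against 5.89% and 1.61%, and in BM 0 of 64 were above and 1 below, against 1.76% and 1.77%. By complex, the difference in PB was -0.12 for complex I, -0.37 for complex II, 0.15 for complex III, 0.02 for complex IV and -0.11 for complex V. ATP5F1B, whose product is the catalytic subunit of ATP synthase, was at 345 CPM in the lowest and 183 CPM in the highest tercile of PB, against 311 and 235 CPM in BM and 238 and 257 CPM in AT, and was picked out for its value in PB. UQCR10 was at 307 and 424 CPM in the same terciles of PB.

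Other genes of the pathway, glycolysis genes and cytosolic ribosomal protein genes were counted from lists of names, with the same fold. Of the assembly factors, which build the complexes without remaining in them, 9 of 37 (24.3%) were above the fold and 0 below in BM against AT, near the 27.3% of all genes above and beside 6.70% below. In PB against AT, 3 of 36 (8.33%) were above and 0 below, against 14.0% and 10.2% of all genes. The medians were 0.26 and 0.13. NDUFAF5, a complex I assembly factor, was at 13.1 CPM in AT, 27.6 CPM in BM and 16.8 CPM in PB. The electron carrier genes had medians of 0.235 in BM against AT and -0.18 in PB against AT. Of these genes, 2 of 12 were above in BM and 1 of 12 in PB, with 0 below in both. Only 1 of 12 (8.33%) was higher in PB than in AT by any amount, beside 53.5% of all genes. This was CYCS, which encodes cytochrome c, at 221 CPM in AT, 356 CPM in BM and 349 CPM in PB. COQ2, also of this list, was at 15.6, 20.7 and 11.9 CPM.

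The tricarboxylic acid cycle genes had a median of 0.41 in BM against AT with 3 of 15 above, and a median of 0.00 in PB against AT with 1 above and 1 below. Mitochondrial ribosomal protein genes, which are needed to translate the chromosome MT subunits, had medians of 0.27 and 0.04, with 9 of 68 above in BM and 3 above and 1 below in PB. Import and cristae genes had medians of 0.18 and 0.02, with 6 of 25 above and 1 below in BM and 3 above and 1 below in PB, and SLC25A4, the muscle form of the ADP/ATP carrier, was at 18.1 CPM in AT, 8.23 CPM in BM and 3.10 CPM in PB. Regulators of mitochondrial biogenesis had medians of 0.20 and -0.09, with 1 of 9 above in BM and 1 above and 1 below in PB. Of 16 glycolysis genes, 8 were above the fold and 1 below in PB against AT with a median of 0.40, and 4 were above and 1 below in BM against AT with a median of 0.28. The count above the fold in PB became 5 of 16 (31.2%) under TMM factors, against 12.6% of all genes, and 3 of 15 (20.0%) without shared barcodes, against 17.3% of all genes. ALDOC, an aldolase, was at 19.7, 17.9 and 48.7 CPM and ENO2, an enolase, at 14.7, 27.2 and 7.02 CPM. Cytosolic ribosomal proteins had medians of -0.41 in BM, with 19 of 56 below the fold, and -0.14 in PB, with 0 below. The median of all genes beside these values was 0.24 for BM and 0.03 for PB, and the shares of all genes above and below the fold were 27.3% and 6.70% for BM and 14.0% and 10.2% for PB. Over all these lists together, 35 of 238 genes were above (14.7%) and 21 below (8.82%) the fold in BM against AT. Cytosolic ribosomal proteins gave 19 of these 21. Under TMM factors 6 of 237 were above (2.53%) and 56 below (23.6%), against 13.6% and 15.1% of all genes. Of these 56, 46 were cytosolic ribosomal proteins, and no other list gave more than 3. In PB against AT, 21 of 237 were above (8.86%) and 5 below (2.11%), and without shared barcodes 11 of 235 were above (4.68%) and 22 below (9.36%), against 17.3% and 17.5% of all genes.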

How the data were processed

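Single-cell transcripts of cultured MSCs were counted in 3 libraries. The authors assigned reads to barcodes with Cell Ranger, mapped them to EquCab3.0 and used ESAT for gene-level counting. The deposited values are raw UMI counts, whole numbers for each barcode and gene. Barcodes were kept if they had 2500 to 15000 UMIs and no more than 3% of them on chromosome MT. Multiplets were bounded only by the upper limit. UMIs of the kept cells were summed per library and scaled to CPM. Sources were compared by subtracting values of log2(CPM + 1), so differences of low genes are understated, and counts past the fold used 0.5 on that scale with at least 10 CPM in a source of the pair. No count model was fitted because each source had 1 library. Bounds of a difference combine the exact 95% Poisson limits of both sums (SciPy 1.17.1), and shares have Clopper-Pearson limits. At 3 UMIs, the depth corresponds to 0.0750, 0.0746 and 0.0721 CPM in AT, BM and PB. Precision is therefore high for counting, while the spread between cultures is not known. TMM factors came from edgeR 4.0.16 and were 0.928, 1.13 and 0.957. The computation of ratios was tested on simulated data.

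ESAT counts 3′ tags, so counts were not divided by transcript length, and a low count can also reflect how the end of a gene is annotated. In RefSeq names of another horse assembly, 28 of 68 matched members had a span overlapping that of another gene, and counting there may be uncertain. The members, gene lists and roles were chosen with earlier results of these data known. Named members are, per pair, the 8 with the largest difference among those with at least 10 CPM, the member with the highest mean CPM of each complex, the SDH genes and the paralogue sets. Other lists name up to 2 genes of largest difference. Other members are named for their chromosome, their low count or their role group, or are stated to have been picked out after their values were seen. Alternatives changed the cell limits, scaling, denominator, pseudocount, fold, weighting of cells, cell cycle content and shared barcodes. No sequences were printed.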

Additional observations from a re-analysis of the deposited data

Results flagged for a closer look

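Signal for the members was present in barcodes outside every comparison above. In the AT library, 5716 barcodes under the lower UMI limit carried a barcode that another library held with at least 500 UMIs, and the members summed to 16113 CPM [16001, 16225] in them, at a median of 829 UMIs. In the other 439 AT barcodes under that limit the members summed to 13273 CPM [12984, 13566]. Kept AT-derived MSCs held 14868 CPM and kept PB-derived MSCs 16654 CPM. COX8A was at 510 CPM and NDUFB10 at 471 CPM in the first set, against 314 and 595 CPM in kept AT-derived and 570 and 481 CPM in kept PB-derived MSCs. In the second set COX8A was at 337 CPM and NDUFB10 at 558 CPM, with 3.44% of UMIs on chromosome MT. These barcodes were flagged as a signal in data that no comparison above used. Low AT barcodes do enter the alternative below with all barcodes of at least 500 UMIs, which held 10493 AT barcodes at a median of 2858 UMIs, against 5403 kept. Where their transcripts came from was not tested.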

How the results depend on the processing

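No paired analysis was possible because each source had 1 library, and for the same reason leaving out a replicate was not possible. The search for promoter motifs was not run, since no promoter sequences were at hand. Counting error is widest for the members of fewest UMIs, among them NDUFA2, COX4I2, COX6B2, COX7A1 and NDUFB1, and for values with a shared barcode left out, which rest on 651 PB cells of low depth. Except where an alternative has fewer cells or genes by construction, the cause of a shift was not tested. Named members past the fold kept the sign of their difference in every alternative run. Leaving out shared AT barcodes alone moved none of the main values past its limits.

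For the summed members, BM minus AT was -0.056 with TMM factors, -0.050 with median-of-ratios factors, 0.12 with only the UMIs outside the members, ribosomal proteins and chromosome MT as denominator ("other UMIs" from here), 0.21 with all barcodes of at least 500 UMIs and 0.21 with an upper limit of 10000 UMIs. PB minus AT was -0.0076 without shared barcodes, 0.12 with TMM factors, 0.11 with median-of-ratios factors, 0.11 over other UMIs, 0.15 thinned, 0.15 with all barcodes, 0.15 with the upper limit of 10000, 0.16 as a mean of single cells and 0.18 without cells high in cell cycle genes. PB minus BM was 0.17 with TMM factors, 0.17 with median-of-ratios factors, -0.0098 over other UMIs, -0.23 without shared barcodes, -0.069 thinned and -0.049 without cells high in cell cycle genes.

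Counts of members past the fold are followed in brackets by the percentage of all genes under the same setting. In BM against AT, 9 above (27.3%) and 0 below (6.70%) became 1 (13.6%) and 3 (15.1%) with TMM factors, 1 (13.8%) and 3 (14.9%) with median-of-ratios factors, 1 below (8.79%) over other UMIs and 0 above (8.33%) at a fold of 1 on the log2 scale. In PB against AT, 11 above (14.0%) and 0 below (10.2%) became 5 (17.3%) and 6 (17.5%) without shared barcodes, 6 above (6.50%) with a pseudocount of 25 CPM, 0 above (5.80%) at a fold of 1 and 1 below (7.91%) with no filter on low values. In PB against BM, 3 above (6.28%) and 2 below (21.6%) became 9 (11.9%) and 0 (10.4%) with TMM factors, 8 (11.6%) and 0 (10.7%) with median-of-ratios factors, 5 above (7.18%) over other UMIs, 19 below (30.7%) without shared barcodes, 0 above (2.93%) with a pseudocount of 25 CPM, and 0 (2.15%) and 0 (5.80%) at a fold of 1.

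Percentages in brackets are again those of all genes under the same setting. Genes of the other lists numbered 35 above (27.3%) and 21 below (6.70%) in BM against AT. They became 6 (13.6%) and 56 (15.1%) with TMM factors, and 6 (13.8%) and 56 (14.9%) with median-of-ratios factors. Over other UMIs they were 19 (21.8%) and 33 (8.79%). Cytosolic ribosomal proteins were 19 of the 21 below in CPM and 46 of the 56 below with TMM factors. In PB against AT, 21 above (14.0%) and 5 below (10.2%) became 11 (17.3%) and 22 (17.5%) without shared barcodes, and 13 above (12.5%) with median-of-ratios factors. In PB against BM, 18 above (6.28%) and 26 below (21.6%) became 42 (11.9%) and 6 (10.4%) with TMM factors, and 41 (11.6%) and 6 (10.7%) with median-of-ratios factors. Cytosolic ribosomal proteins were 15 of the 18 above in CPM and 26 of the 42 above with TMM factors. The count below became 16 (19.2%) without cells high in cell cycle genes and 73 (30.7%) without shared barcodes.

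The COX7A1 share of the COX7A1 and COX7A2 UMIs was 3.07% in BM when thinned, and in PB 4.96% thinned, 4.92% without cells high in cell cycle genes and 5.11% without shared barcodes. The ATP5MC3 share of c subunit UMIs was 39.9% (AT), 48.2% (BM) and 39.5% (PB) when thinned, and 39.0%, 46.8% and 38.8% without cells high in cell cycle genes. It was 47.9% in BM and 39.5% in PB with the upper limit of 10000, 48.2% in BM and 39.7% in PB as a mean of single cells, and 37.0% in PB without shared barcodes. The median share per cell was 1.44% in AT thinned, 1.501% in AT and 1.71% in BM with all barcodes, 1.71% in BM and 1.63% in PB with the upper limit of 10000, 1.71% in BM without a mitochondrial limit, and 1.45% in PB without shared barcodes. Without cells high in cell cycle genes it was 1.41% (AT), 1.68% (BM) and 1.61% (PB).

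The ratio of nuclear to mitochondrial CPM was 1.12 in AT and 1.16 in PB with no upper UMI limit, and 1.14 in AT with the upper limit of 10000. It was 1.12 in AT, 0.908 in BM and 1.16 in PB without a mitochondrial limit, and 1.12, 0.908 and 1.154 without cells high in cell cycle genes. As a mean of single cells it was 1.12, 0.920 and 1.16. It was 0.921 in BM and 1.150 in PB thinned, and 0.969 in PB without shared barcodes.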

Other observations

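NDUFA4L2, a relative of NDUFA4 that is known to be induced under low oxygen and was left out of the members by name, was at 249 CPM in AT, 174 CPM in BM and 8.0005 CPM in PB. CYC1, the cytochrome c1 of complex III, which the name rule does not reach, was at 194, 217 and 167 CPM.

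Among the kept PB cells, the 651 without a shared barcode held COX8A at 562 CPM and NDUFB10 at 434 CPM, and the 4667 with a shared barcode held them at 571 and 483 CPM. Cytosolic ribosomal proteins were at 231134 CPM in the former and 212117 CPM in the latter.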
